A study of Homo sapiens with 6 samples.

Results

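The HOX genes encode homeodomain transcription factors that lie in 4 clusters, HOXA, HOXB, HOXC and HOXD, in the human genome. H3K27ac and H3K4me3 at 38 of these genes were described here, out of 20098 protein-coding genes on chromosomes 1 to 22 and X. The members were taken by name. A member was given every deposited peak region that overlapped its gene body, or 1 kb on either side of it, by at least 1 bp in hg19.

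In the embryo, HOX genes are expressed in the order in which they stand along the chromosome, so that the genes of low paralog number act in anterior and those of high number in posterior parts of the body. HOX proteins bind DNA with the TALE homeodomain cofactors of the PBX, MEIS and PKNOX families. Repressed HOX clusters are covered by Polycomb proteins and H3K27me3, and active HOX genes carry H3K4me3, deposited by MLL-type methyltransferases, and H3K27ac, a mark of active promoters and enhancers. Epithelial cells keep a HOX pattern that reflects their position in the body, and cancer cells often depart from it.

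ChIP-seq was done in HSC3, an established cell line of oral squamous cell carcinoma (OSCC), transfected with a control siRNA (siCONT) or with siDLEU1, which targets the long noncoding RNA (lncRNA) DLEU1. Chromatin was collected after 72 h, and each siRNA and histone mark is represented by a single library, which makes 4 ChIP libraries. No value below has a replicate, and no p-value is given. All values are those of 1 cell line, and differences between the siRNAs cannot be told apart from differences between single libraries.

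The 4 lists held 19705 H3K27ac regions in siCONT and 17672 in siDLEU1, and 58582 and 56943 H3K4me3 regions. The number of fragments at each summit was solved from the deposited fold enrichment and p, and matched the deposited p of 100% of the peaks. Under an assumed mappable genome of 2.7 Gb, the depth was 21.5 M and 29.4 M reads for H3K27ac and 28.4 M and 22.3 M for H3K4me3. "Level" below is the coverage at the summit of a region divided by the average coverage of the genome in the same ChIP library, so that 1 is the genome average. "Rank" is the percentile of the fold enrichment within the list, with 100 at the top and 0 for a gene with no region. Ratios of levels are siDLEU1 over siCONT, with 95% exact (Clopper-Pearson) intervals that cover counting error only. Summits of overlapping regions can lie at different positions in siCONT and siDLEU1. The lowest level in a list was 8.74 and 9.91 for H3K27ac and 8.07 and 9.11 for H3K4me3 in siCONT and siDLEU1, and a weaker signal could not be seen.

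HSC3 cells carried the marks at genes of their labelled type. All 8 squamous epithelial markers examined, among them TP63, KRT5 and KRT14, had an H3K27ac region in siCONT, 7 (all but DSG3) had one in siDLEU1, and 8 had an H3K4me3 region in both lists. Over all protein-coding genes, 64.4% had an H3K27ac region in siCONT and 60.8% in siDLEU1, and 67.3% and 67.8% had an H3K4me3 region. None of 7 markers of other cell types had an H3K27ac region in either list, and 1, PTPRC, had an H3K4me3 region in both.

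In siCONT, 26 of the 38 HOX genes had an H3K27ac region and 21 had an H3K4me3 region, against backgrounds of 64.4% and 67.3% of all protein-coding genes. In siDLEU1, the numbers were 25 and 23, against 60.8% and 67.8%. These counts rest on whole gene bodies, some of which run over the regions of neighbouring members, and counts over promoters alone, given further on, stood lower against their background. The H3K27ac regions of HOX genes stood lower in the list, with a median rank of 42.7 in siCONT and 41.6 in siDLEU1. Over all genes the medians were 71.3 and 67.4. For H3K4me3, the median ranks were 84.1 and 80.6 in HOX genes and 84.0 and 85.2 over all genes.

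A group of 21 members had a region of both marks in both siCONT and siDLEU1. These were HOXA3, HOXA4, HOXA5, HOXA6, HOXA9, HOXA10 and HOXA11 in HOXA, HOXB3, HOXB6, HOXB7 and HOXB8 in HOXB, HOXC4, HOXC5, HOXC6, HOXC9, HOXC11 and HOXC13 in HOXC, and HOXD3, HOXD8, HOXD11 and HOXD13 in HOXD. Of the 21, HOXA6, HOXA9, HOXC4 and HOXD3 had no region over their canonical GENCODE transcript or within 1 kb of it. Another 11 members had no region in any of the 4 lists. They were HOXA2, which patterns the second pharyngeal arch; HOXB1 and HOXB2, which act in the hindbrain; HOXB4, HOXB5 and HOXB13, the last known from the prostate; HOXC10 and HOXC12; and HOXD4, HOXD9 and HOXD12. Over all 20098 genes, 12398 had both marks in siCONT and 11945 in siDLEU1, and 30.0% and 30.8% had neither. The shares of all genes with a region in each of the 4 lists, or in none, were not computed. By position, 6 of 11 members of paralog groups 1 to 4 had H3K27ac in siCONT. For groups 5 to 8 it was 9 of 11, and for groups 9 to 13 it was 11 of 16. The background was 64.4% of all genes, and members can share a region, so that these counts are not independent.

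H3K27ac without H3K4me3 was seen at 5 of the 26 HOX genes with H3K27ac in siCONT, where the background was 4.26%, and at 3 of 25 in siDLEU1, where it was 2.30%. In siCONT these were HOXA7, HOXA13, HOXB9, HOXD1 and HOXD10, and in siDLEU1 they were HOXA13, HOXC8 and HOXD1. In siCONT, 12 HOX genes had neither mark, against a background of 30.0%, and in siDLEU1 12 had neither, against 30.8%. No HOX gene had H3K4me3 alone in siCONT, and 1, HOXD10, did in siDLEU1.

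**Figure D1:**
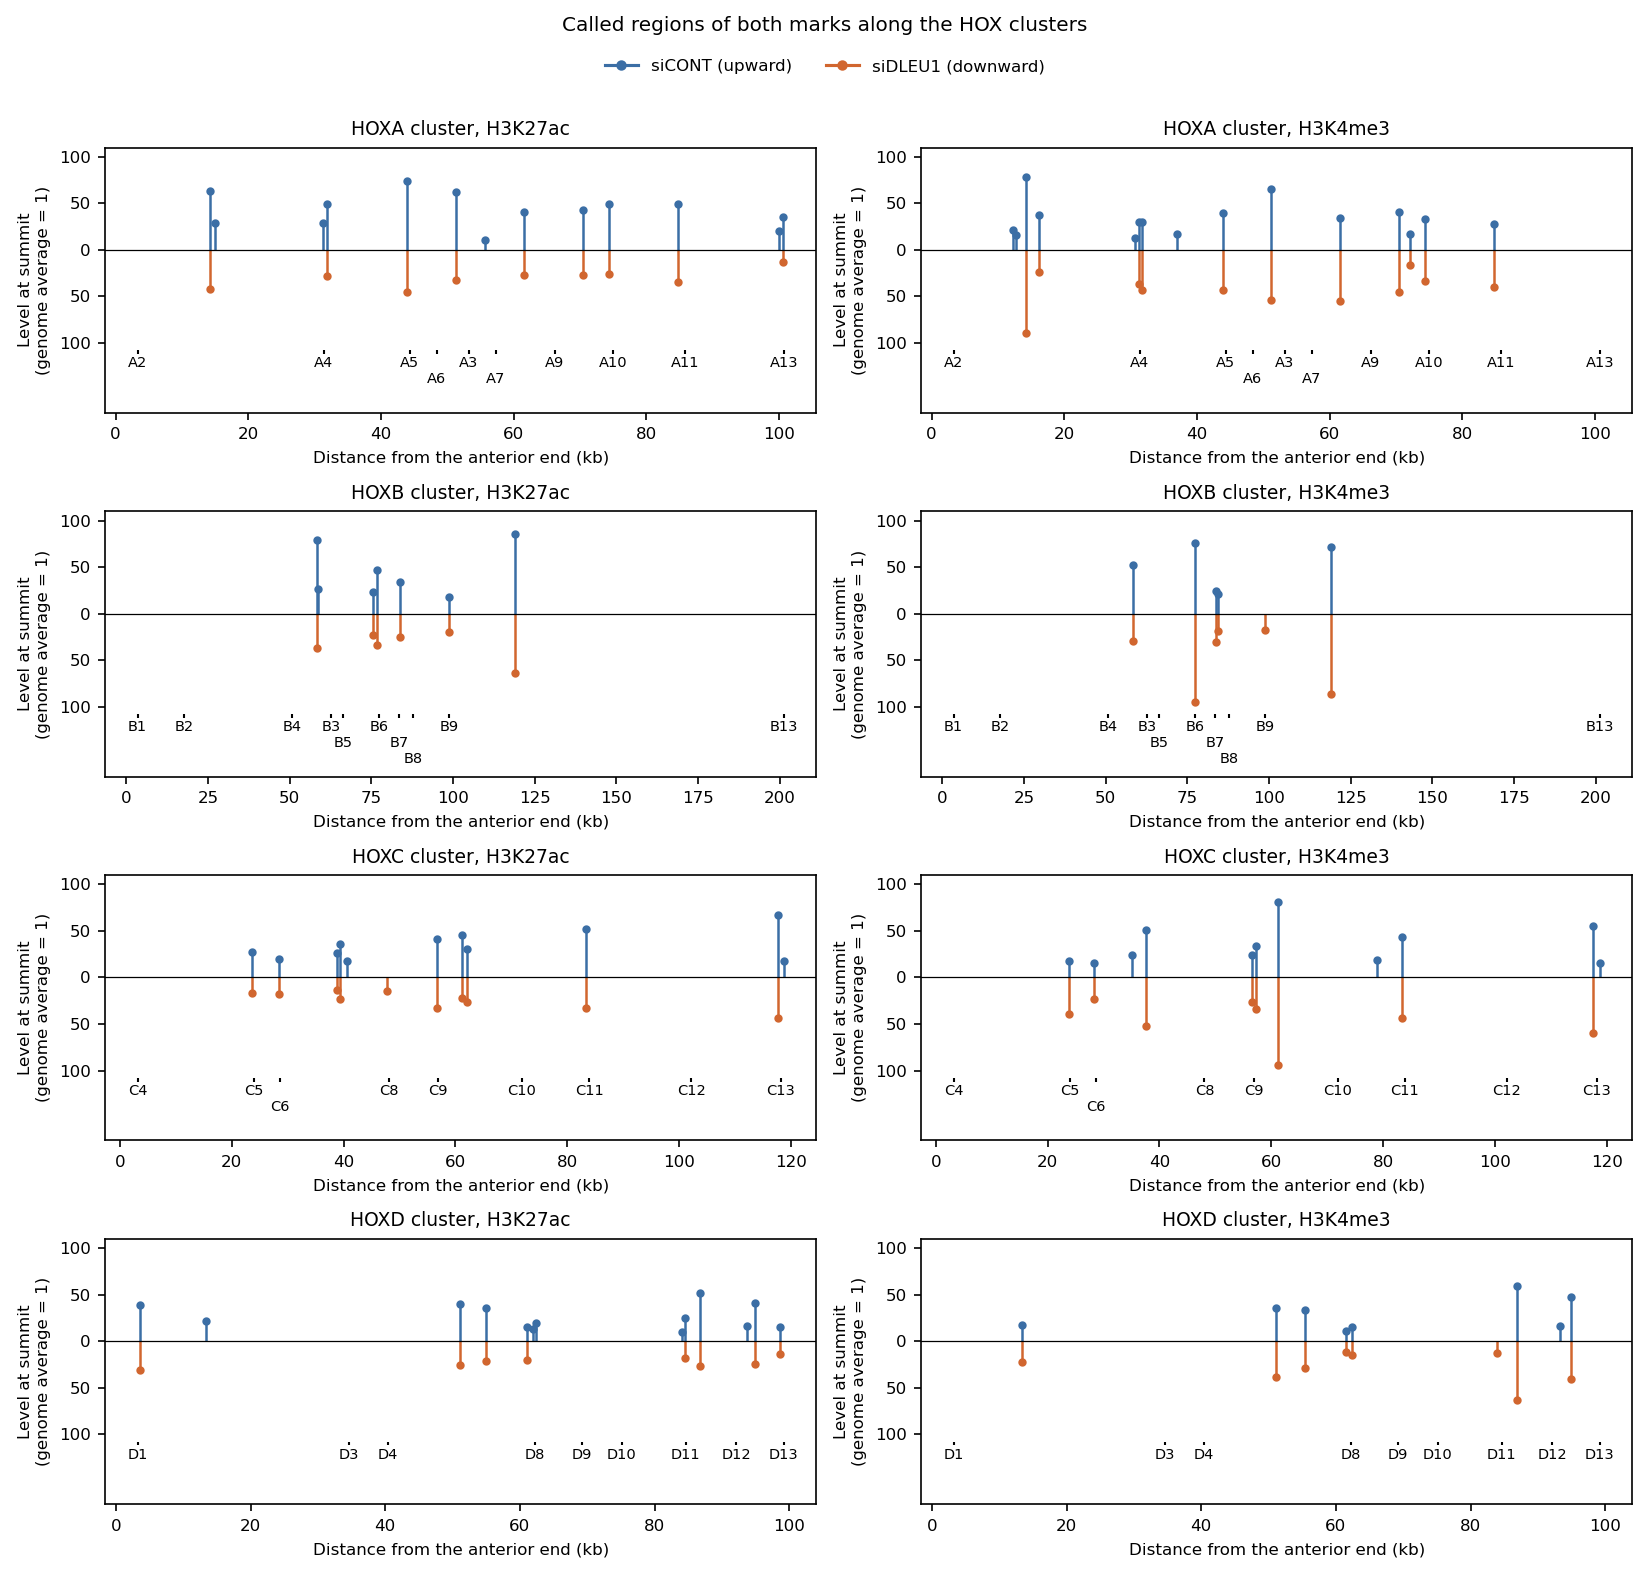
Level at the summit of each called region (genome average = 1) along the 4 HOX clusters, in kb from the anterior end, for siCONT (upward) and siDLEU1 (downward), with a tick at the start of each gene. H3K27ac stems are mostly shorter in siDLEU1, those of H3K4me3 mostly not, and the ends of HOXB hold no region of either mark.

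Sequences just upstream of the start are given for 4 members, and no called region reached those of HOXA7 and HOXD10 in any list. The 4 are the members with the top H3K27ac rank in HOXA and HOXD in siCONT (HOXA5, whose region and rank HOXA3 shares, and HOXD11) and the members with H3K27ac in siCONT only (HOXA7 and HOXD10). Each is read 5′ to 3′ on the strand of the gene from GRCh37, the build of hg19, and ends 1 base before the canonical start in GENCODE. HOXA7 is the exception, since an annotated untranslated part reaches into its window, and only the 171 bases upstream of that part are given. The sequences of HOXA7, HOXD10 and HOXD11 lie within the gene bodies, since other transcripts of these genes start earlier. Capitals mark a match to 1 of 4 motifs searched on both strands, spelled for the PBX-HOX pair as TGATTNAT, for posterior HOX proteins as TTTATNG, for the TATA-binding protein as TATAAA, and for STAT proteins as TTCNNNGAA. TTTATNG and TATAAA can share bases on opposite strands.
HOXA5, chr7:27183301-27183550, minus strand: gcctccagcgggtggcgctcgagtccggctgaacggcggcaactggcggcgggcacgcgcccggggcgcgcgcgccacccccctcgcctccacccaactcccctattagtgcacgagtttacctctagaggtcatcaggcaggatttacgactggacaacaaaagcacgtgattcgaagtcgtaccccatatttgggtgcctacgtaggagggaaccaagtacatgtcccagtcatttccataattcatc
HOXD11, chr2:176971758-176972007, plus strand: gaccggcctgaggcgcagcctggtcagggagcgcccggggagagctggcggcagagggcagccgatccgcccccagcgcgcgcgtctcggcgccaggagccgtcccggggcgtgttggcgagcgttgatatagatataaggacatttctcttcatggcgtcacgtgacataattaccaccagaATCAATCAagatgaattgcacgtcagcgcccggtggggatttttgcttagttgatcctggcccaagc
HOXA7, chr7:27196374-27196544, minus strand: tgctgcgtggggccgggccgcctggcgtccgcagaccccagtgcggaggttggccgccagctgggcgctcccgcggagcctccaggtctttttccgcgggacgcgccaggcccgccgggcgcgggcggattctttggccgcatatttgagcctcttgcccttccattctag
HOXD10, chr2:176981256-176981505, plus strand: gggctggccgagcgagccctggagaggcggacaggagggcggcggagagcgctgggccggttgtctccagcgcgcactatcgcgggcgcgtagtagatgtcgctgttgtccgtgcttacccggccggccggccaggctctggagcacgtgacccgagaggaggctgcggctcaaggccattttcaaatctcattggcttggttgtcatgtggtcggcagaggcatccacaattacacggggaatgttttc

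The HOXD11 promoter holds a PBX-HOX match. The other 3 hold no match, which says only that these letters are not in this window. Over the 250 bases before the start, TGATTNAT was in 3 of 38 HOX promoters (HOXA2, HOXB9 and HOXD11) and in 1.69% of 19818 protein-coding promoters. TTTATNG was in 6, against 7.40%, TATAAA in 6, against 9.28%, and TTCNNNGAA in 0, against 5.69%. HOX promoters held a median of 14 CpG and 57% G+C, compared with 18 and 63.2% over all promoters. The 11 HOX promoters with an H3K27ac region in siCONT held a median of 22 CpG (range 8 to 40), and the 27 without one held 12 (range 3 to 28), so that the ranges overlapped.

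Fewer of these short promoter windows held H3K27ac in siDLEU1. A region reached into the 250 bases of 11 HOX promoters in siCONT and of 4 in siDLEU1, where the backgrounds were 50.6% and 37.2%. The 7 reached in siCONT but not in siDLEU1 were HOXA4, HOXA5, HOXA13, HOXB6, HOXC11, HOXC13 and HOXD8, and over all genes 27.2% of the promoters reached in siCONT were not reached in siDLEU1. Each of the 7 genes still had an H3K27ac region elsewhere in its window. At HOXA5, for example, the region of 1545 bp in siCONT covered 60 of the 250 bases, and the region of 1307 bp in siDLEU1 covered none. For H3K4me3, 9 HOX promoters were reached in each list, against 45.2% and 46.7%. HOXA5 was the 1 promoter reached in siCONT but not in siDLEU1, where the background was 6.80%, and HOXC5 was reached in siDLEU1 but not in siCONT. Only the edge of a region was concerned, since 5 of the 250 bases were covered at HOXA5 in siCONT and 53 at HOXC5 in siDLEU1.

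Over the clusters as a whole, less sequence lay in called regions in siDLEU1. The 4 clusters, each with 1 kb on either side, spanned 523350 bp. H3K27ac regions covered 35630 bp (6.81%) in siCONT and 22487 bp (4.30%) in siDLEU1, a ratio of 0.631, while over the whole genome the ratio was 0.714. H3K4me3 regions covered 43866 bp (8.38%) and 35844 bp (6.85%), a ratio of 0.817, against 0.917 over the genome.

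The H3K27ac length was lower in siDLEU1 in each cluster. It went from 10788 bp in 13 regions to 5778 bp in 10 in HOXA, from 6732 bp in 7 to 5029 bp in 7 in HOXB, from 9757 bp in 11 to 7157 bp in 11 in HOXC, and from 8353 bp in 13 to 4523 bp in 9 in HOXD. The ratios were 0.536, 0.747, 0.734 and 0.541. HOXA and HOXD thus kept less of their H3K27ac length than HOXB and HOXC. For H3K4me3, the ratios of covered length were 0.716 in HOXA, 0.929 in HOXB, 0.847 in HOXC and 0.840 in HOXD.

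**Figure D2:**
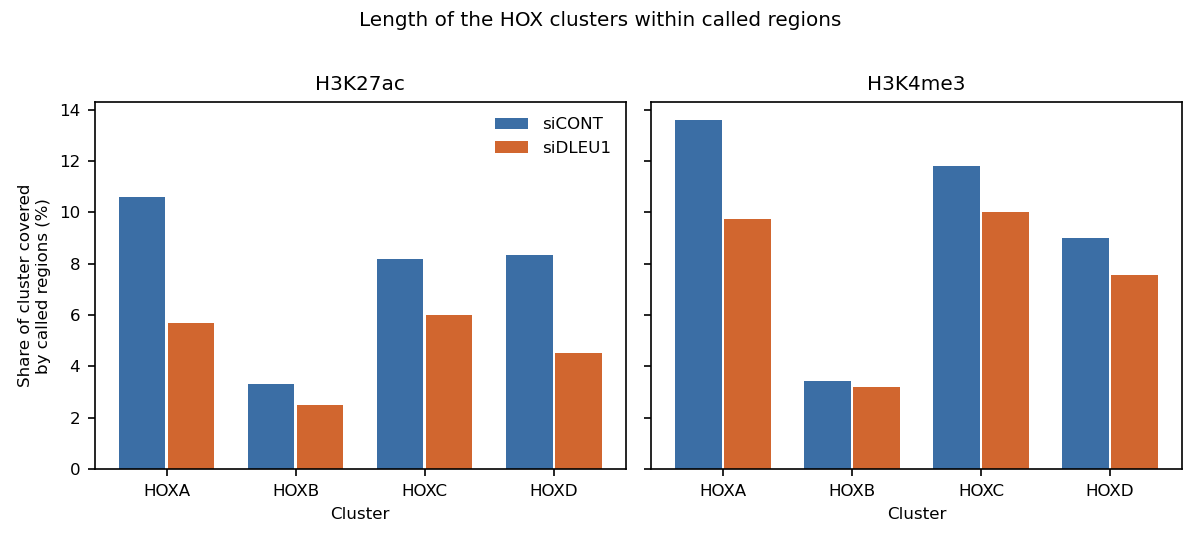
Share of each HOX cluster (%) covered by called regions of H3K27ac and H3K4me3 in siCONT and siDLEU1, with 1 library per bar and no error bars. The covered share is lower in siDLEU1 in each cluster and for both marks, and HOXA has the highest share of both marks in siCONT, with 10.6% and 13.6%.

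Of the 44 H3K27ac regions of siCONT in the clusters, 12 had no overlapping region in siDLEU1, and the background was 22.2% of all regions. These 12 had levels of 9.41 to 28.9 in siCONT. The other 32 were all narrower in siDLEU1, where the background was 90.8%. Their median ratio of levels was 0.649, close to the 0.621 of all regions, and it was 0.614 in HOXA, 0.746 in HOXB, 0.647 in HOXC and 0.690 in HOXD. The counting interval lay entirely below the median of all regions at 1 HOX region, where the background was 2.88%, and entirely above it at 2, where the background was 4.59%. By this measure, HOX regions had about the ratio of other H3K27ac regions.

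Of the 41 H3K4me3 regions of siCONT in the clusters, 8 had no overlapping region in siDLEU1, with a background of 23.6%. The other 33 had a median ratio of levels of 1.08, compared with 1.22 over all regions, and 24 of them were narrower, with a background of 52.8%. The interval lay below the median of all regions at 4 HOX regions, against a background of 12.8%, and above it at 1, against 16.4%.

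**Figure D3:**
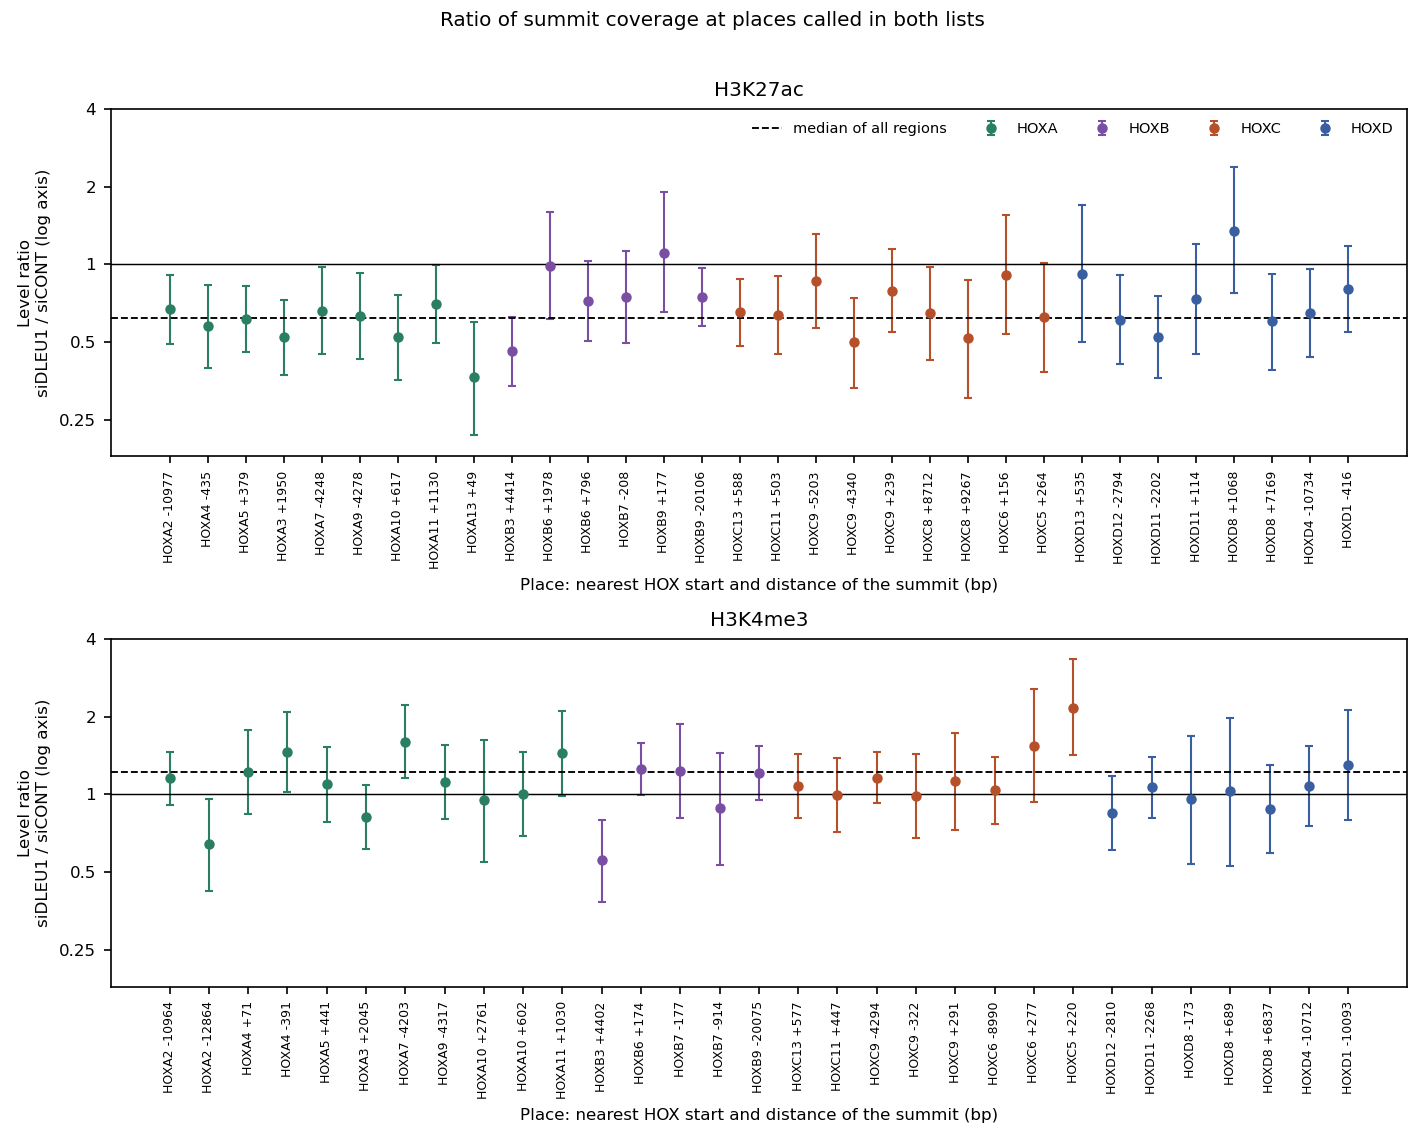
Ratio of summit coverage, siDLEU1 over siCONT (log axis), at each place in the HOX clusters with a region in both lists, with 95% counting intervals. Each place is named by the nearest HOX start and the distance of its summit in bp, and the dashed line is the median of all regions, 0.621 for H3K27ac and 1.22 for H3K4me3.

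Gene by gene, 24 members had H3K27ac in both lists. The highest level among the regions of a member was taken in each list, so that the levels of a ratio can come from different regions. It was lower in siDLEU1 at 22 of the 24, where the background was 98.8%. The median ratio was 0.642 (range 0.366 to 1.10), against 0.617 over all genes. Of the 26 members with H3K27ac in siCONT, 19 ranked lower in siDLEU1, where the background was 62.4%, and the median difference in rank was -4.54 points, against -4.33 over all genes. This difference depended on the setting, from -1.23 with each strongest control region counted once to -14.3 with a stricter q. For H3K4me3, the level was lower at 4 of 21 members, where the background was 18.6%, and the rank was lower at 16 of 21, where the background was 47.5%. The median difference in H3K4me3 rank was -2.11 points, against 0.36 over all genes. The gene bodies of HOXA3, HOXA9, HOXB3, HOXB7, HOXC4, HOXC6 and HOXD3 are long in GENCODE and run over neighbouring genes, so that members share regions. The 26 members with H3K27ac in siCONT had 21 different strongest regions, and the 21 with H3K4me3 had 17.

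**Figure D4:**
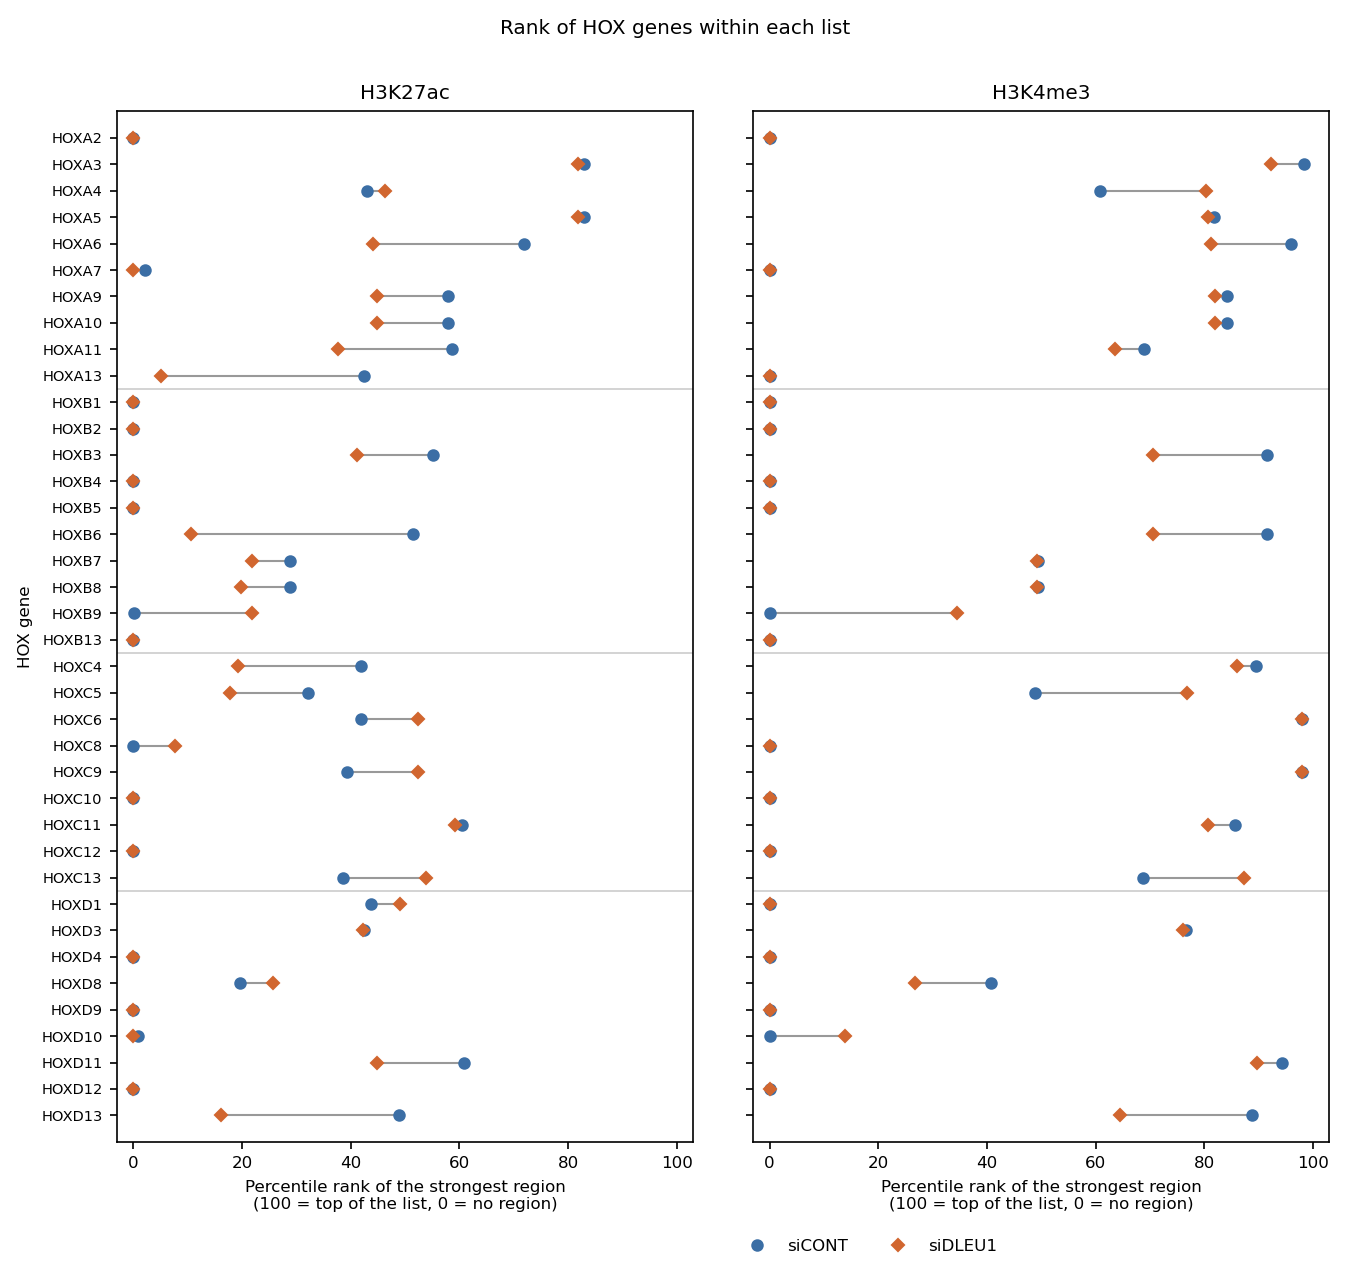
Rank of the strongest region of each of 38 HOX genes within the H3K27ac and H3K4me3 lists, in percentile points (100 is the top of a list and 0 is no region), in siCONT (circles) and siDLEU1 (diamonds). HOXB6, HOXA13 and HOXD13 lie far lower in siDLEU1 for H3K27ac, and HOXC5 and HOXA4 lie higher for H3K4me3.

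Among the HOXA members, the top H3K27ac rank was that of a region over the start and coding exon of HOXA5, at chr7:27181816-27183360 in siCONT, which HOXA3 shares. HOXA5, which acts in the lung and in the cervical and thoracic skeleton, had 110 fragments at this summit in siCONT and 87 in siDLEU1. The level was 74.0 and 45.4, and the ratio was 0.614 (0.458 to 0.821). Its rank was nearly the same in both lists, 82.8 and 81.8. H3K4me3 at this place had a level of 39.9 in siCONT and 43.6 in siDLEU1, and the interval of its ratio, 1.09 (0.781 to 1.52), included 1.

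HOXA6 held a region near its upstream end, within introns of HOXA3 transcripts, at chr7:27189689-27190997. H3K27ac there had 92 fragments in siCONT and 62 in siDLEU1, a ratio of 0.523, and the rank of HOXA6 was 71.8 and 44.2. H3K4me3 had 137 and 82 fragments, and its ratio of 0.820 (0.616 to 1.09) lay below the median of all H3K4me3 regions. HOXA6 was 1 of the 4 members at which the H3K4me3 level was lower in siDLEU1. No region of either mark lay over its canonical transcript or within 1 kb of it.

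HOXA3, needed for the thymus and parathyroid, also held an intronic region at chr7:27152413-27153466, with an H3K27ac level of 63.2 in siCONT and 42.3 in siDLEU1. H3K4me3 at this place was among the strongest of the HOX clusters, with levels of 77.9 and 89.8. A neighbouring H3K4me3 region in the same introns, at chr7:27154527-27155491, had 79 and 37 fragments and a ratio of 0.642 (0.422 to 0.960).

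HOXA4 had an H3K27ac region on either side of its start in siCONT, with 43 fragments over the coding exon and 73 upstream. In siDLEU1 the upstream region remained, with 54 fragments, and no region was called over the coding exon. H3K4me3 was called at both places in both lists. The upstream place had 63 H3K4me3 fragments in siCONT and 67 in siDLEU1, a ratio of 1.46. The H3K4me3 rank of HOXA4 was 60.8, from the coding exon place in siCONT, and 80.2, from the upstream place in siDLEU1. The fold enrichment at the upstream place was 5.63 and 14.3, so that the fold differed more than the summit coverage.

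HOXA9 and HOXA10, which act in blood cells, the limb and the uterus, shared 2 H3K27ac regions. Neither mark had a region over the canonical transcript of HOXA9 or within 1 kb of it. HOXA9 thus took its values from regions shared with HOXA10. The region over the HOXA10 coding exon, at chr7:27212784-27213831, had 73 fragments in siCONT and 49 in siDLEU1, and it was 1048 bp and 289 bp wide. Its ratio was 0.521, while that of H3K4me3 at the same place was 1.004. The other region, at chr7:27208987-27210123, had 64 and 52 H3K27ac fragments, and 86 and 70 H3K4me3 fragments.

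In siCONT this H3K27ac region contains MIR196B, on the minus strand at chr7:27209099-27209183. In siDLEU1 the H3K27ac region, at chr7:27209304-27210074, ends short of it, and the H3K4me3 regions of both lists contain it. The microRNA genes MIR196A1, MIR196A2 and MIR10B of the other clusters had no region of either mark in any list. The mature 5p products of the miR-196 genes, from RefSeq (GRCh38.p14 table), share their seed, bases 2 to 8, given here in capitals.
hsa-miR-196b-5p: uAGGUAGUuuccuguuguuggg
hsa-miR-196a-5p: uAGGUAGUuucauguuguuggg

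HOXA11, which acts in the forearm, kidney and uterus, had 74 H3K27ac fragments in siCONT and 67 in siDLEU1, a ratio of 0.703, and its rank was 58.5 and 37.7. H3K4me3 there had 58 and 61 fragments, a ratio of 1.44 (0.989 to 2.10).

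HOXA13, a gene of the distal limb and genital tract at the posterior end of the cluster, had the lowest ratio among the HOX clusters. The region around its start, at chr7:27239516-27240348 in siCONT, had 53 H3K27ac fragments. In siDLEU1, a region upstream of the start, at chr7:27239969-27240266, had 25 fragments. It did not reach the siCONT summit, so the ratio compares summits at different positions. The level was 35.6 and 13.04, the ratio was 0.366 (0.218 to 0.600), and the width was 833 bp and 298 bp. Another region, over the coding exon with 31 fragments in siCONT, was not called in siDLEU1. The rank of HOXA13 was 42.4 and 5.13. No H3K4me3 region was called at HOXA13 in either list.

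HOXA7 had H3K27ac in siCONT only, in a region of 206 bp within its coding sequence at chr7:27194584-27194789. It held 16 fragments at a level of 10.8, close to the lowest level of that list, and it had no H3K4me3. Over all genes, 5.82% of those with H3K27ac in siCONT had none in siDLEU1, compared with 2 of 26 HOX genes, HOXA7 and HOXD10.

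In HOXB, regions lay from HOXB3 to HOXB9 and in the long gap before HOXB13. HOXB3, which acts in the hindbrain, held the top H3K27ac rank of the HOXB genes, in an intron at chr17:46662384-46663456. The summit had 118 fragments in siCONT and 70 in siDLEU1, at levels of 79.3 and 36.5, and the ratio was 0.460 (0.338 to 0.624). H3K4me3 at the same place had 111 and 45 fragments, at levels of 52.7 and 29.3, with a ratio of 0.555 (0.384 to 0.792). HOXB3 was the place in the clusters with the lowest H3K4me3 ratio, and both marks were lower there in siDLEU1. A smaller H3K27ac region next to it, with 39 fragments, was called in siCONT only.

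HOXB6 had its widest H3K27ac region over its intron and start, at chr17:46680947-46682644. It was 1698 bp wide with 70 fragments in siCONT, and 1197 bp with 65 fragments in siDLEU1, a ratio of 0.721 (0.506 to 1.02). The rank of HOXB6 was 51.5 and 10.6, the largest difference among the members. In siDLEU1 the rank came from another region of the intron, at chr17:46680210-46680836. The fold enrichment at the widest region was 15.1 and 3.97, so that the fold, which is taken over the local background, differed more than the summit coverage. H3K4me3 there was strong in both lists, with 160 and 146 fragments.

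HOXB7 and HOXB8 shared a region in the sequence between them, at chr17:46688397-46688955. It had 51 H3K27ac fragments in siCONT and 49 in siDLEU1, a ratio of 0.746, and 51 and 46 H3K4me3 fragments, a ratio of 1.24.

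HOXB9 ranked higher in siDLEU1, while its level differed by no more than counting error. The region over its coding sequence had 26 H3K27ac fragments in siCONT and 37 in siDLEU1, at levels of 17.5 and 19.3, and its rank was 0.157 and 21.9. The ratio was 1.10, and its interval, 0.651 to 1.90, included 1 and lay above the median of all regions. The fold enrichment was 3.23 and 6.34, so that the fold, and with it the rank, differed more than the summit coverage. H3K4me3 was called at HOXB9 in siDLEU1 only, at chr17:46703422-46703659, with 27 fragments at a level of 17.6. Over all genes, 6.93% of those without H3K4me3 in siCONT had it in siDLEU1, compared with 2 of 17 HOX genes, HOXB9 and HOXD10. No HOX gene had H3K4me3 in siCONT only, where the background was 2.53%.

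The strongest H3K27ac level in the 4 clusters was not at a member. It lay in the gap between HOXB9 and HOXB13, in an intron of the lncRNA LINC03057, at chr17:46722956-46725142. H3K27ac had 128 fragments in siCONT and 123 in siDLEU1, at levels of 86.1 and 64.2, a ratio of 0.746 (0.578 to 0.963). Its rank in the list was 74.1 and 97.01, so that the rank was higher in siDLEU1 while the level was lower. H3K4me3 covered the same place, with levels of 71.2 and 86.5.

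In HOXC, the regions with the most fragments lay at HOXC13, HOXC11 and upstream of HOXC9. HOXC13, which regulates hair and nail keratin genes, had 100 H3K27ac fragments in siCONT and 84 in siDLEU1 over its start and coding sequence, at chr12:54332578-54334080. The level was 67.2 and 43.8, a ratio of 0.652 (0.482 to 0.880), and the rank was 38.5 and 53.8. H3K4me3 there had 116 and 91 fragments, a ratio of 1.07.

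HOXC11 held the top H3K27ac rank of its cluster, 60.5 in siCONT and 59.3 in siDLEU1. Its region, at chr12:54366814-54368566 in siCONT, covers the coding sequence and overlaps an intron of HOTAIR, a lncRNA known to bind Polycomb proteins. It had 78 and 64 H3K27ac fragments, a ratio of 0.637, and its width was 1753 bp and 1608 bp. H3K4me3 had levels of 43.7 and 43.6.

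HOXC9 and HOXC6 shared the H3K4me3 region with the highest level in siCONT of all members, between HOXC10 and HOXC9 at chr12:54388215-54390545. It had 171 fragments in siCONT and 145 in siDLEU1, at levels of 81.2 and 94.3, and the rank was 98 in both lists. Within it lay 2 H3K27ac regions, with 67 and 43 fragments (ratio 0.498) and with 46 and 51 fragments (ratio 0.860). At the start of HOXC9 itself, H3K27ac had 61 and 62 fragments, a ratio of 0.789.

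HOXC4, HOXC5 and HOXC6 share an exon far upstream of their coding parts, and regions lay along this stretch. The broadest H3K4me3 place of the clusters was here, at chr12:54410113-54414119, with 3890 bp covered in siCONT and 3842 bp in siDLEU1. No region reached the 250 bases before the start of HOXC4, which took its values from these shared regions, and its H3K27ac rank was 41.8 and 19.3. HOXC6, with regions along the same stretch and at HOXC9, had ranks of 41.8 and 52.5, which came from different regions. The first was that of a shared region of this stretch, and the second that of the region at the HOXC9 start. At the start of HOXC6 itself, the H3K27ac rank was 19.5 in siCONT and 3.74 in siDLEU1, with 29 and 34 fragments. At the start of HOXC5, H3K27ac had 41 fragments in siCONT and 33 in siDLEU1, a ratio of 0.625. H3K4me3 at the same place had 38 and 60 fragments, at levels of 18.04 and 39.0, and was 418 bp and 785 bp wide. Its ratio of 2.16 (1.42 to 3.34) was the highest in the clusters for H3K4me3.

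HOXC8 had H3K27ac in siDLEU1 only. The region of 186 bp, at chr12:54402966-54403151 in its 5′ untranslated part, had 27 fragments at a level of 14.1 and a rank of 7.74. Of all genes without H3K27ac in siCONT, 0.434% had it in siDLEU1, compared with this 1 gene of 12. HOXC8 had no H3K4me3 in either list.

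In HOXD, the top H3K27ac rank was that of HOXD11, a gene of the forearm and kidney. Its strongest region lay upstream of the start, at chr2:176969180-176970996, with 77 fragments in siCONT and 52 in siDLEU1. The level was 51.8 and 27.1, the ratio was 0.524 (0.361 to 0.755), and the rank was 60.8 and 44.8. One H3K4me3 region of 3659 bp ran from this place over the start of HOXD11 in siCONT, with 125 fragments, and it was 3647 bp with 97 fragments in siDLEU1.

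HOXD10, known from the hindlimb, had a region only at the far end of its window, in the coding sequence of HOXD11. H3K27ac was called there in siCONT only, at chr2:176972528-176972757, with 14 fragments at a level of 9.41. H3K4me3 was called there in siDLEU1 only, at chr2:176972642-176972898, with 19 fragments at a level of 12.4. All of these calls were near the lowest level of their lists, and no region of either mark reached the HOXD10 start.

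HOXD13, a gene of the digits, had a region of 22 H3K27ac fragments in siCONT and 26 in siDLEU1 in its coding sequence, a ratio of 0.917 (0.4998 to 1.70), without H3K4me3. Between HOXD13 and HOXD12, at chr2:176961473-176962470, H3K27ac had 61 and 48 fragments, a ratio of 0.611, and H3K4me3 had 100 and 62, a ratio of 0.850 (0.609 to 1.18). Both marks were lower here in siDLEU1. The rank of HOXD13, taken from this place in siCONT, was 48.9 and 16.1 for H3K27ac and 88.7 and 64.4 for H3K4me3.

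HOXD8 had 3 small H3K27ac regions around its start in siCONT, with 29, 20 and 22 fragments, and the last of them, over the coding sequence, was the one called in siDLEU1. It had 38 fragments there, at levels of 14.8 in siCONT and 19.8 in siDLEU1, and its ratio of 1.34 (0.773 to 2.38) was the highest of the clusters for H3K27ac. The siDLEU1 region, at chr2:176994997-176995320, did not reach the siCONT summit, so this ratio compares summits at different positions. H3K4me3 at HOXD8 was weak in both lists, with at most 33 fragments. HOXD3 took its values from 2 regions between HOXD8 and HOXD4, with H3K27ac ratios of 0.600 and 0.647.

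HOXD1, at the anterior end, had H3K27ac upstream of its start without H3K4me3 in either list. The region at chr2:177052450-177053566 had 57 fragments in siCONT and 59 in siDLEU1, at levels of 38.3 and 30.8, a ratio of 0.803 (0.549 to 1.18). Its width was 1117 bp and 484 bp, so that the region was narrower although the fragments at the summit were alike in number.

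Among the genes that work with the HOX proteins, 6 of 8 TALE cofactor genes examined had H3K27ac in siCONT and 5 in siDLEU1. The shares of all genes were 64.4% and 60.8%. Of the 6, 5 ranked lower in siDLEU1, with a median difference of -12.5 points and a median ratio of levels of 0.570. Over all genes, 62.4% ranked lower, the median difference was -4.33 points and the median ratio was 0.617. PBX3 had 123 fragments in siCONT and 78 in siDLEU1, a ratio of 0.492. MEIS1, a partner of HOXA9, had 104 and 61, a ratio of 0.455, though it was the 1 gene that ranked higher, at 49.1 and 55.9. The ratios of PBX2 and PKNOX1, 0.762 and 0.655, lay above the median of all genes. MEIS3 had H3K27ac in siCONT only, with 26 fragments. H3K4me3 was called at 7 of the 8 genes in siCONT and 8 in siDLEU1, against 67.3% and 67.8% of all genes. All 7 ranked lower, against 47.5%.

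Of 18 lncRNA genes of the clusters, 14 had H3K27ac in siCONT and 13 in siDLEU1, and 13 had H3K4me3 in both. The shares of protein-coding genes were 64.4% and 60.8% for H3K27ac and 67.3% and 67.8% for H3K4me3, and many of these lncRNA genes overlap members and share their regions. HOTTIP, which starts next to HOXA13, held the same 2 regions as that gene, and HAGLR held the HOXD1 region. HAGLROS, a lncRNA of the HOXD cluster, had H3K27ac in siCONT only, with 32 fragments, while its H3K4me3 had 37 and 35 fragments. EVX1 and EVX2, the homeobox genes at the posterior ends of HOXA and HOXD, had no region in any list. Of the 6 ParaHox genes, relatives of the HOX genes that lie elsewhere, 1, GSX1, had H3K27ac, with 57 fragments in siCONT and 40 in siDLEU1, and none had H3K4me3.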

How the data were processed

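H3K27ac and H3K4me3 ChIP-seq libraries of HSC3 cells were examined. The authors aligned Ion Proton reads to hg19 by bowtie2 and deposited 1 MACS2 peak list for each library, and their MACS2 settings are not given in the sources used here. The fold ratio, the −log10 p and the −log10 q in the deposited lists are those of MACS2, and the deposited score was not used. The 2 input libraries were not analysed here. No peak ended past a chromosome end of GRCh37.

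Genes were those of GENCODE v44 lifted to GRCh37. The members and gene lists were chosen with earlier results of these data known. Some genes and sequences are not reported here. Values are given for all members with a region in 1 list of a mark only and, in each cluster, for the 3 highest and the lowest H3K27ac rank in siCONT. Other places were chosen after their values were seen, among them the gap between HOXB9 and HOXB13. Regions of the 2 lists of a mark that overlap were joined into a place. Summit fragments were solved from fold and p, and this was tested on simulated data, where the lowest share recovered exactly in 2 lists of 23761 peaks in all was 99.99%. Lists of unequal depth differ in what they can detect, since the fewest fragments in a list were 13 and 19 for H3K27ac and 17 and 14 for H3K4me3 in siCONT and siDLEU1. The tools were Python 3.11.15, numpy 2.4.6, pandas 2.3.3, scipy 1.17.1 and matplotlib 3.10.9. Alternatives were other thresholds, windows, overlaps, joins and ranks.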

Additional observations from a re-analysis of the deposited data

How the results depend on the processing

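With 1 library for each siRNA and mark, no replicate could be left out, and no error between cell cultures is known. No paired analysis was possible because no group has a replicate. When regions had to reach 10 in −log10 q, the covered H3K27ac ratio was 0.435, 15 HOX genes had H3K27ac in siDLEU1, 7 had it in siCONT only and 0 in siDLEU1 only, and the median difference in rank was -14.3; for H3K4me3 the ratio was 0.812, 1 gene had it in siDLEU1 only, and the difference was -5.20. With the gene body alone, 4 genes had H3K27ac in siCONT only and 1 had H3K4me3 in siDLEU1 only, with differences of -9.08 and -4.00. Within 1 kb of transcription start sites, the differences were -11.0 and -4.67. With an overlap of at least 200 bp, 0 genes had H3K27ac in siDLEU1 only. With equal numbers of regions, the H3K27ac ratio was 0.671, and the order of the lists turned, with 23 genes with H3K27ac in siCONT and 25 in siDLEU1, 0 in siCONT only and 2 in siDLEU1 only. The covered ratios stayed below 1 and the median differences in rank stayed negative under each alternative. With regions joined within 1 kb, the ratios were 0.620 and 0.8495. Ranked by −log10 p, the differences were -4.93 and -1.22, and by fragments -4.72 and -2.58. The other 2 alternatives, the canonical transcript and a single count for each region, were chosen after seeing the data. With the canonical transcript, 21 genes had H3K27ac in each list, 1 gene had H3K27ac in siCONT only and 1 had H3K4me3 in siDLEU1 only, with differences of -7.35 and -4.67, and with each strongest control region counted once the differences were -1.23 and -3.32. No share over all genes and no ratio over the genome is given for these alternatives. The counts and ratios above therefore cannot be set against a background, and they do not single out HOX genes. The cause of these movements was not tested.

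Depth limits what can be said. The calls at HOXA7, HOXC8 and HOXD10 in 1 list only rest on 14 to 27 fragments. The MACS2 setting for duplicate reads is not given in the sources used here. If 1 read was kept at each position and strand, coverage cannot exceed 374, 352, 400 and 372 fragments in the H3K27ac and H3K4me3 libraries of siCONT and siDLEU1, and ratios at strong regions would lie closer to 1. The most fragments in these lists were 348, 325, 384 and 367, and at most 171 in the HOX clusters.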
